A study of Mus musculus with 2 samples.

Results

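The 9 genes described here encode enzymes that make monoamines (Hdc, Ddc, Th, Tph1 and Dbh), the transporters that load them into secretory vesicles (Slc18a1 and Slc18a2) and the oxidases that break them down (Maoa and Maob). They are Hdc (ENSMUSG00000027360, chromosome 2), Ddc (ENSMUSG00000020182, chromosome 11), Th (ENSMUSG00000000214, chromosome 7), Tph1 (ENSMUSG00000040046, chromosome 7), Dbh (ENSMUSG00000000889, chromosome 2), Slc18a1 (ENSMUSG00000036330, chromosome 8), Slc18a2 (ENSMUSG00000025094, chromosome 19), Maoa (ENSMUSG00000025037, chromosome X) and Maob (ENSMUSG00000040147, chromosome X). They were chosen by name as the core of the histamine, serotonin and catecholamine routes. All 9 were found among the 37681 gene identifiers that both files list. The study asked where histamine-making cells of the gastric corpus, the large middle region that secretes acid, come from, and what sets them apart from serotonin-expressing cells. The RNA came from stomach cells of Hdc-CFP transgenic mice on the C57BL/6 strain, whose cyan fluorescent protein reports activity of the Hdc gene. The Hdc-CFP positive group held 1 library, from cells sorted for the reporter. The Hdc-CFP depleted group held 1 library, from corpus epithelial cells of such transgenic mice from which the reporter cells had been removed. Strain and genotype are the same in both groups. The cell type label of the positive library names the stomach, and that of the depleted library the stomach corpus epithelium. The sources used here give neither the number of mice behind each library nor any pooling.

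Histamine is made from histidine in 1 step by histidine decarboxylase, the product of Hdc. Serotonin and the catecholamines are each started by a hydroxylase, tryptophan hydroxylase (Tph1 outside the brain) or tyrosine hydroxylase (Th). The aromatic amino acid decarboxylase Ddc completes serotonin and dopamine, and dopamine beta-hydroxylase, encoded by Dbh, turns dopamine into noradrenaline. The vesicular monoamine transporters concentrate the amines in vesicles: the product of Slc18a2 carries histamine well, and that of Slc18a1 carries serotonin and catecholamines and hardly any histamine. In the gastric corpus, enterochromaffin-like (ECL) cells make and store histamine, which drives acid secretion by parietal cells, while enterochromaffin cells and, in rodents, mast cells hold serotonin.

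Gene counts summed to 10736538 in the positive and 50928524 in the depleted library. Levels are normalised CPM, that is, counts scaled to library size, and brackets hold 95% intervals that cover counting error alone. Because each group is a single library, no fold has a replicate check or a test, and each compares these libraries, not the conditions. A gene was called measured with at least 10 counts in at least 1 library, which 16682 genes reached. It was called higher or lower where its level differed at least 2-fold with an interval clear of 1. By this rule 21.9% of measured genes were higher and 21.9% lower in the positive library. Where no read was counted, a level of up to 3 counts remains possible, which is 0.246 CPM for the positive and 0.0668 CPM for the depleted library. This floor covers counting error only, and a listed 0 can also come from how a gene was annotated or counted. The labelled cell types were checked against marker genes. The parietal, chief and surface mucous markers summed to 1561, 16509 and 3442 CPM in the positive library and to 11081, 65932 and 147672 CPM in the depleted library. Lipf and Tff1, of the chief and surface mucous lists, had 0 counts in both libraries, although Gkn1, a surface mucous gene, stood at 1565 CPM in the positive and 68248 CPM in the depleted library. Chga, the granule protein gene of endocrine cells, stood at 63985 CPM in the positive and 164 CPM in the depleted library.

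The promoter windows below are shown because they let 4 members past 100-fold (Hdc, Slc18a2, Th and Ddc) be set beside Tph1, which had a much smaller fold. They are the 250 bases upstream of the start from RefSeq (GRCm38.p6), read 5′ to 3′ in the direction of the gene. RefSeq windows were found for 7 of the 9 members, with none for Slc18a1 and Maob. The windows of Dbh and Maoa were found but are not printed. Capitals mark matches on either strand to TATAAA (the TATA box), TGACGTCA (cAMP response element), TGACG (its core, which lies within the full element), GGGCGG (GC box), CCAAT (the box of that name), CAGCTG (an E box) and AGATAA (the site of GATA factors). The Hdc window is chr2:126618679-126618928 (minus strand), that of Slc18a2 chr19:59260628-59260877 (plus strand) and that of Th chr7:142899996-142900245 (minus strand). Ddc has 2 RefSeq starts, with windows chr11:11898145-11898394 (distal) and chr11:11890409-11890658 (proximal), and Tph1 has 2, with windows chr7:46672538-46672787 (distal) and chr7:46667378-46667627 (proximal), all on the minus strand.
Hdc: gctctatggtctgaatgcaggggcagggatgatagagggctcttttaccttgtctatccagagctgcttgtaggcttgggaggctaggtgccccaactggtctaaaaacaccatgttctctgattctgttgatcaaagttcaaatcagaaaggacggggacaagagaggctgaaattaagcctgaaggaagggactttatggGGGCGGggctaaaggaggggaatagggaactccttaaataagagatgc
Slc18a2: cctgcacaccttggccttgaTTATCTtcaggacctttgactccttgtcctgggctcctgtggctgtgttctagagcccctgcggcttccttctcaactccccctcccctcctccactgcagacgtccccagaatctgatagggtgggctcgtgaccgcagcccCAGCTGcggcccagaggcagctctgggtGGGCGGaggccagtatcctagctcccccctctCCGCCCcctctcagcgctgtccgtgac
Th: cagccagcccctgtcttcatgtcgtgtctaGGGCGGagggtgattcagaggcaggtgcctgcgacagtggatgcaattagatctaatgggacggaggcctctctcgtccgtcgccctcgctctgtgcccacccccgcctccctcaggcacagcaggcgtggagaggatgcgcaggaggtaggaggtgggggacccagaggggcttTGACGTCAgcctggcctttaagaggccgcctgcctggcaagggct
Ddc distal: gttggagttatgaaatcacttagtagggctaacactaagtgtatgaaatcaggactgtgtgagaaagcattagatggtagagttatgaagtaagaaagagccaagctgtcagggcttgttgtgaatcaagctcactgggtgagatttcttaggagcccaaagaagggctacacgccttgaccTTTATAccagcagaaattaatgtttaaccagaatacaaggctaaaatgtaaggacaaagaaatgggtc
Ddc proximal: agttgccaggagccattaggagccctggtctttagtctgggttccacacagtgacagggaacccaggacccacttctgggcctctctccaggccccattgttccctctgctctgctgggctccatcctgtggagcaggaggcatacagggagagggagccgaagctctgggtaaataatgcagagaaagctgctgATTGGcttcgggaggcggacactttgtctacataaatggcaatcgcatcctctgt
Tph1 distal: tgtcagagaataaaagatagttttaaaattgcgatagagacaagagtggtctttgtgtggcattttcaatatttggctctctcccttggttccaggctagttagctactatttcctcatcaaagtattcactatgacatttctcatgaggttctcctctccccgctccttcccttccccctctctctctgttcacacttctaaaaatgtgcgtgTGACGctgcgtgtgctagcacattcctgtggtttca
Tph1 proximal: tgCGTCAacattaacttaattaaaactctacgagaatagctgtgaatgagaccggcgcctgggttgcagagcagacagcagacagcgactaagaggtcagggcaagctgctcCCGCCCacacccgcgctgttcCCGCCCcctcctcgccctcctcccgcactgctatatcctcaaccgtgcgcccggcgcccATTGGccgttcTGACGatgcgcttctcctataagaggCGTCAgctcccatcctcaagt

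Of these windows, that of Th holds the full cAMP response element, which starts 45 bases before the gene's start and occurs in 1.55% of all 32851 promoter windows of this length. The core TGACG, found in 17.8% of all windows, lies 3 times in the proximal and 1 time in the distal Tph1 window. It also lies within the full element of Th, and not in the windows of Hdc, Slc18a2 or Ddc. Of the windows not printed, those of Maoa and Dbh hold TGACG, that of Maoa also a GC box and that of Dbh also CCAAT. A GC box, found in 32.7% of all windows, lies in the windows of Hdc, Slc18a2 and Th and in the proximal window of Tph1. The E box (13% of all windows) and the GATA site (9.99%) occur in the Slc18a2 window. CCAAT (33.8% of all windows) occurs in both proximal windows, and TATAAA (12.4%) in the distal Ddc window. The matches describe these letters only. Counts per gene do not tell which of 2 starts was used.

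Every measured member was higher in the positive library: 8 of the 9 members were measured and all 8 were called, beside 21.9% of all measured genes. The folds ran from 4.19 for Maoa to 413 for Hdc. Of the 8, 5 reached 100-fold (Hdc, Th, Slc18a2, Slc18a1 and Ddc), beside 2.33% of all measured genes, and none was lower by 100-fold, beside 0.605%. At 4-fold with an interval beyond 2-fold all 8 were still higher, beside 13.6% of measured genes higher and 11.3% lower. The remaining member, Dbh, had 0 counts in both libraries. The median log2 fold was 7.38 over the 8 measured members and -0.05 over all measured genes. Hdc is included in each of these counts and in the median, although its call follows from the sort on its activity. Th passed the count filter only through the positive library.

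**Figure D1:**
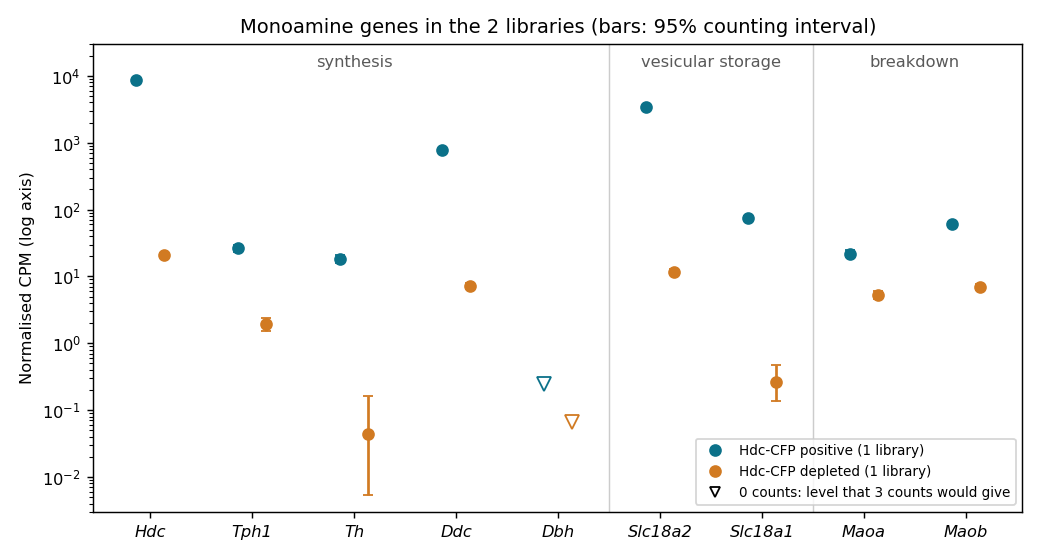
Normalised CPM (log axis) of the 9 members in the Hdc-CFP positive (blue) and Hdc-CFP depleted (orange) library, 1 library each; bars are 95% counting intervals and open triangles mark genes with 0 counts at the level of 3 counts. The 8 measured members stand higher in the positive library, by 4.19-fold (Maoa) to 413-fold (Hdc), and Dbh is at 0 counts in both.

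Hdc, the histamine-forming enzyme and the gene whose reporter defined the sort, had 106553 counts (8750.2 CPM [8698 to 8803]) in the positive library and 951 counts (21.2 CPM [19.9 to 22.6]) in the depleted library. The fold was 413 [388 to 441], rank 44 of 16682 measured genes. The sort used the activity of this gene, so its fold checks the labels and is not a finding. Whether reads of the transgene were counted in Hdc is not stated in the sources.

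Ddc, the decarboxylase shared by the serotonin and catecholamine routes, had 9384 counts (770.6 CPM [755 to 786]) in the positive library and 326 counts (7.26 CPM [6.49 to 8.09]) in the depleted library, a fold of 106 [95.04 to 119]. The 2 hydroxylases that feed it were far less abundant. Tph1 had 319 counts (26.2 CPM [23.4 to 29.2]) in the positive library and 87 counts (1.94 CPM [1.55 to 2.39]) in the depleted library, a fold of 13.5 [10.6 to 17.3]. Th had 220 counts (18.1 CPM [15.8 to 20.6]) in the positive library and only 2 counts (0.0445 CPM [0.00539 to 0.161]) in the depleted library. The ratio for Th was 406, with a wide counting interval of 111 to 3370. Both hydroxylases were thus well above the limit of 3 counts in the positive library, whereas Th was below it in the depleted library and Tph1 above it.

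The later enzymes of the catecholamine route were not detected. Dbh, which makes noradrenaline, and Pnmt, which makes adrenaline from it, each had 0 counts in both libraries, so that up to 0.246 CPM in the positive and 0.0668 CPM in the depleted library could have been missed by counting error alone. As with Tff1, whether such a 0 reflects the level or the annotation was not tested. Tph2, the tryptophan hydroxylase of serotonin neurons, likewise had 0 counts in both libraries. Relative to the 220 counts of Th, the 0 counts of Dbh allow a ratio of at most 0.0148 per kilobase of exon in the positive library. In the depleted library, with 2 counts of Th, the same upper limit is 4.68 and carries no information on the route.

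Both vesicular transporters were among the members past 100-fold. Slc18a2 had 41429 counts (3402 CPM [3370 to 3435]) in the positive library, and in the depleted library 527 counts (11.7 CPM [10.8 to 12.8]), a fold of 290 [266 to 316]. Slc18a1 had 903 counts (74.2 CPM [69.4 to 79.2]) in the positive library and 12 counts (0.267 CPM [0.138 to 0.467]) in the depleted library, a fold of 277 [158 to 539]. An antisense gene, Gm29261, overlaps 2.12% of the exon bases of Slc18a2. No other member overlaps the exons of another gene in the annotation.

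The oxidases, which sit on the outer mitochondrial membrane and act in many cell types, had the smallest folds of the 8 measured members. Maob, whose product oxidises phenylethylamine and the methylated product of histamine, had 740 counts (60.8 CPM [56.5 to 65.3]) in the positive library and 311 counts (6.93 CPM [6.18 to 7.74]) in the depleted library, a fold of 8.77 [7.68 to 10.05]. Maoa, the main oxidase of serotonin and noradrenaline, had 268 counts (22.01 CPM [19.5 to 24.8]) in the positive library and 236 counts (5.26 CPM [4.61 to 5.97]) in the depleted library, a fold of 4.19 [3.50 to 5.01]. Maoa shares 3.98% of its 50-base words with other transcripts, and the other members share less.

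**Figure D2:**
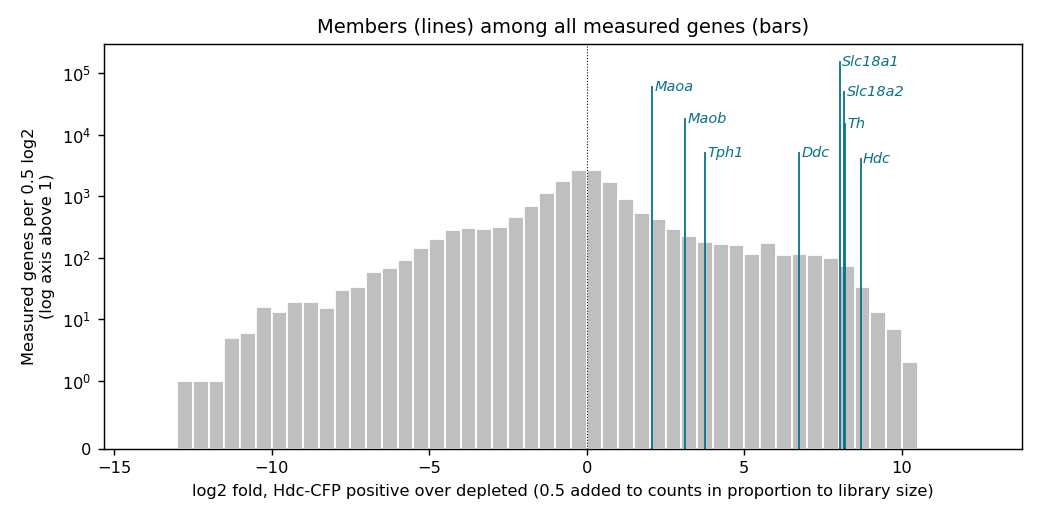
Histogram of the log2 fold (positive over depleted) of all 16682 measured genes (grey bars, log count axis above 1), with the 8 measured members as lines whose heights carry no value. Hdc, Th, Slc18a2, Slc18a1 and Ddc lie in the far right tail, and Tph1, Maob and Maoa lie between 4.19-fold and 13.5-fold.

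The order of the folds was Hdc, Th, Slc18a2, Slc18a1, Ddc, Tph1, Maob and Maoa. Counted among all measured genes, their ranks were 44, 46, 111, 120, 373, 1271, 1538 and 2239. For these ranks only a count of 0 was raised to the floor, so Th, with 2 counts in the depleted library, kept its full ratio. The rank of Th is therefore not on the same footing as that of a gene with 0 counts. With 0.5 added, the log2 fold of Th was 8.187, beside 8.177 for Slc18a2 and 8.025 for Slc18a1. The interval of Slc18a1 overlapped those of Hdc, Slc18a2 and Th, and the interval of Th overlapped those of every member down to Ddc, so each is not placed against the genes whose intervals it overlaps. Slc18a1 lay above Ddc, and Th above Tph1, Maob and Maoa, with intervals that did not overlap. Hdc lay above Slc18a2, and Slc18a2 above Ddc, with intervals that did not overlap. Tph1 lay below Ddc, Maob below Tph1 and Maoa below Maob, each with intervals that did not overlap.

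Read the other way, the depleted library held 0.242% of the positive level of Hdc, 0.247% of Th, 0.345% of Slc18a2, 0.360% of Slc18a1 and 0.942% of Ddc. It held 7.40% of Tph1, 11.4% of Maob and 23.9% of Maoa. For comparison, it held 0.256% of Chga, 10.5% of Ghrl (ghrelin) and 12.2% of Sst (somatostatin). Among genes of mast cells, which make histamine and in rodents serotonin, the 16 measured ones of the list differed widely: it held 0% of Mrgprb1 (10 counts in the positive and 0 in the depleted library), 3.58% of Mcpt4 and 6.43% of Cma1, 54.0% of Kit and 56.3% of Mcpt1, and 211% of Mitf, 399% of Srgn and 3959% of Hpgds, a gene also on the tuft cell list. In RNA of mixed cells, fewer cells of a type and less RNA per cell cannot be told apart.

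Levels of different genes were compared per kilobase of merged exon. In the positive library the order was Hdc (1370 CPM per kb), Slc18a2 (651), Ddc (173), Maob (21.8), Slc18a1 (13.7), Th (7.64), Maoa (5.28) and Tph1 (4.24), all in CPM per kb. By this measure Hdc ranked 17th, Slc18a2 27th and Ddc 115th of 16149 measured genes with a known length. In the depleted library the order was Hdc (3.31 CPM per kb), Maob (2.48), Slc18a2 (2.25), Ddc (1.63), Maoa (1.26), Tph1 (0.314), Slc18a1 (0.0495) and Th (0.0188), all in CPM per kb. Slc18a1 and Th thus stood lowest of the measured members in the depleted library. In the positive library the order of Th, Maoa and Tph1 turns with the length used, and by raw counts Th (220) lay below Maoa (268) and Tph1 (319).

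Ratios within a library need no scaling between libraries and were taken for 14 pairs. Because the cells were sorted on Hdc activity, the difference between the libraries in any ratio over Hdc carries the fold of Hdc, so those ratios describe each library and are not compared between them. Along the histamine route, Slc18a2 stood at 0.475 of Hdc per kb [0.470 to 0.481] in the positive library and at 0.678 [0.608 to 0.755] in the depleted library. Maob per Hdc was 0.0159 [0.0148 to 0.0171] in the positive library and 0.749 [0.657 to 0.852] in the depleted library. Hnmt, the methyltransferase that inactivates histamine, had 6 counts in the positive library and 214 in the depleted library, a level 9.67-fold lower [4.37 to 26.7]. Per kb and relative to Hdc, Hnmt was 2.03e-04 [7.46e-05 to 4.43e-04] in the positive library and 0.813 [0.697 to 0.944] in the depleted library. Maob itself was higher in the positive library, as given above, and Hnmt was lower. These ratios depend on length in both libraries. With the longest coding transcript Slc18a2/Hdc was 0.246 in the positive and 0.3502 in the depleted library, Maob/Hdc was 0.00689 and 0.324, and Hnmt/Hdc was 8.13e-05 and 0.325.

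Along the serotonin route, Ddc exceeded Tph1 per kb 40.7 times [36.4 to 45.6] in the positive library and 5.18 times [4.08 to 6.65] in the depleted library, and with the longest coding transcript the values were 66.5 and 8.47. Tph1 was 0.00310 of Hdc [0.00277 to 0.00346] in the positive library and 0.0947 [0.0751 to 0.118] in the depleted library. Tph1 itself was 13.5-fold higher in the positive library. Slc18a1 exceeded Tph1 3.24 times [2.84 to 3.69] in the positive library, against a ratio of 0.158 [0.0784 to 0.290] in the depleted library. For the 2 transporters the intervals of the ratio overlapped: Slc18a1 was 0.0211 of Slc18a2 [0.0197 to 0.0225] in the positive library and 0.0220 [0.0113 to 0.0388] in the depleted library, and the ratio of these ratios was 0.957 [0.541 to 1.87].

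Along the catecholamine route, Th was 1.80 times Tph1 per kb [1.51 to 2.14] in the positive library and 0.0600 of it [0.00716 to 0.223] in the depleted library. The ratio in the positive library was 30.0 times that in the depleted library [7.89 to 253.5]. With 2 counts of Th in the depleted library, this ratio is loosely bounded. Which of the hydroxylases was more abundant in the positive library depends on the length used, since raw counts gave 0.690 and the mean coding transcript 0.994. The ratio between the libraries' ratios does not depend on it, because the lengths cancel. Ddc exceeded the sum of Tph1 and Th 14.5 times [13.3 to 15.9] in the positive library and 4.89 times [3.86 to 6.25] in the depleted library, and with the longest coding transcript the values were 25.4 and 8.04. Maoa was 0.242 of Maob [0.210 to 0.279] in the positive library and 0.508 [0.427 to 0.603] in the depleted library.

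**Figure D3:**
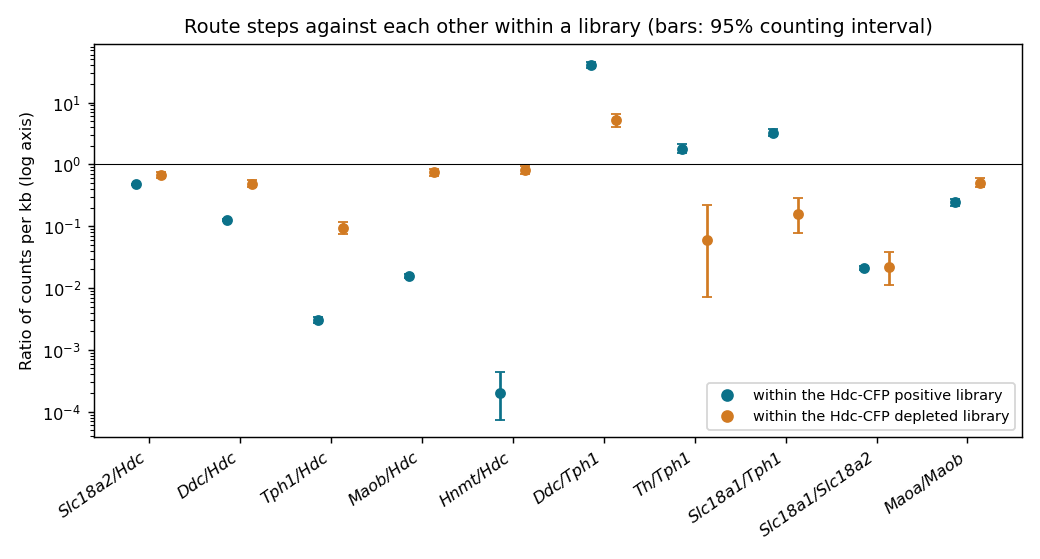
Ratios of counts per kb of merged exon between pairs of genes (log axis) within the Hdc-CFP positive (blue) and Hdc-CFP depleted (orange) library, with 95% counting intervals. Ratios over Hdc carry the fold of the gene used for the sort. Ddc/Tph1, Th/Tph1 and Slc18a1/Tph1 are higher within the positive library, while Slc18a1/Slc18a2 is 0.0211 in the positive and 0.0220 in the depleted library.

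Other genes of these routes were read from 14 overlapping pathway lists. Beyond the members they name 64 genes, of which 61 were in the files and 40 were measured. Of these 40, 15 were higher and 7 lower in the positive library, and 18 were neither, beside 21.9% of all measured genes in each direction. Their median log2 fold was 0.32, against -0.05 over all measured genes. These shares were not tested. The histamine route, members included, had 6 measured genes (4 higher, 1 lower, median log2 fold 5.56), the serotonin route 6 (all higher, 5.24) and the catecholamine route 8 (6 higher, 0 lower, 4.93). These medians move with the filter on counts, and that of the histamine route includes Hdc, the gene used for the sort. Without a filter they were 3.87, 3.91 and 2.82, and with at least 50 counts they were 7.99, 6.73 and 4.93.

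Tryptophan and tyrosine hydroxylases need tetrahydrobiopterin. Of its 8 measured genes, 4 were higher and 0 lower, beside 21.9% of all measured genes in each direction. Gch1, the first enzyme of its synthesis, stood at 112 CPM in the positive library, 10.8 times [9.69 to 11.98] its 10.4 CPM in the depleted one. Qdpr, which regenerates the cofactor, stood at 386 and 40.4 CPM in the positive and depleted library, a fold of 9.55 [9.04 to 10.1], and an antisense gene overlaps 18.6% of its exon bases. Pcbd1, a dehydratase of the same recycling, was 3.49-fold higher [3.28 to 3.71], and Gchfr, which regulates Gch1, was 9.22-fold higher [3.38 to 29.0] on 15 counts in the positive and 6 in the depleted library. The middle enzymes did not pass: Pts had a fold of 1.22 [1.08 to 1.38] and Spr one of 0.519 [0.473 to 0.569]. With DESeq2 size factors, 1 of the 8 genes was lower. Pyridoxal phosphate, the cofactor of Hdc and Ddc, is formed with the kinase encoded by Pdxk, whose fold of 1.58 [1.41 to 1.77] did not pass either. With the library total alone, 1 gene of this cofactor's list was higher. An antisense gene covers 39% of the exon bases of Pdxk.

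Among relatives of the decarboxylases, Gad1, which makes the transmitter GABA, had 53 counts in the positive and 1 in the depleted library, a ratio of 195 [33.6 to 7863]. Csad, of taurine synthesis, was 2.41-fold higher [2.14 to 2.71], while Gad2 had 0 counts in both libraries. Pam, a copper monooxygenase related to Dbh that amidates peptide hormones, stood at 2523 CPM in the positive library, 28.9 times [27.9 to 29.8] its 87.5 CPM in the depleted one. Of the other vesicular transmitter transporters, Slc17a9 (nucleotides) and Slc18b1 (polyamines) had folds of 1.85 [1.62 to 2.11] and 1.27 [1.13 to 1.41] and did not pass. Slc17a6, Slc17a7 and Slc17a8 (glutamate) and Slc32a1 (GABA and glycine) had at most 1 count in the positive library.

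Amines are taken back across the plasma membrane by several carriers. Slc29a4, a low-affinity monoamine transporter, had 2881 counts (236.6 CPM) in the positive library and 41 counts (0.913 CPM) in the depleted library, a fold of 259 [191 to 362] that overlaps those of Slc18a2 and Slc18a1. Slc6a4, the serotonin transporter, was 5.90-fold higher [2.97 to 12.1] on 24 counts in the positive and 15 in the depleted library. The noradrenaline and dopamine transporters Slc6a2 and Slc6a3 had 0 and 1 counts in the positive library and 2 and 0 in the depleted library.

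The steps after the oxidases, and the conjugating enzymes, moved in both directions. Of 11 measured aldehyde, conjugation and methylation genes, 1 was higher and 5 were lower, beside 21.9% of all measured genes in each direction. Hnmt, given above, was among the 5 lower genes. Another 5 were neither, and the median log2 fold of the 11 was -0.96. Aldh2, the mitochondrial aldehyde dehydrogenase that clears aldehydes made by the oxidases, stood at 72.3 CPM in the positive and 431 CPM in the depleted library, 5.96-fold lower [5.57 to 6.38]. Aldh1a1, at 37.1 CPM in the positive and 539 CPM in the depleted library, was 14.5-fold lower [13.2 to 16.0], and Sult1a1, a phenol sulfotransferase, 6.06-fold lower [3.33 to 12.3]. Aldh3a2 was 3.79-fold lower [3.58 to 4.01]. Aldh1b1, a second mitochondrial aldehyde dehydrogenase, was 15.2-fold higher [12.6 to 18.4]. Aoc1, the diamine oxidase of histamine, had 3 counts in the positive and 14 in the depleted library (fold 0.790 [0.146 to 2.83]). Of the polyamine genes, Paox was 3.59-fold lower [2.04 to 6.88] but shares 28.5% of its 50-base words with other transcripts, and Odc1 and Smox had folds of 0.568 [0.479 to 0.671] and 1.92 [1.69 to 2.17] and did not pass.

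**Figure D4:**
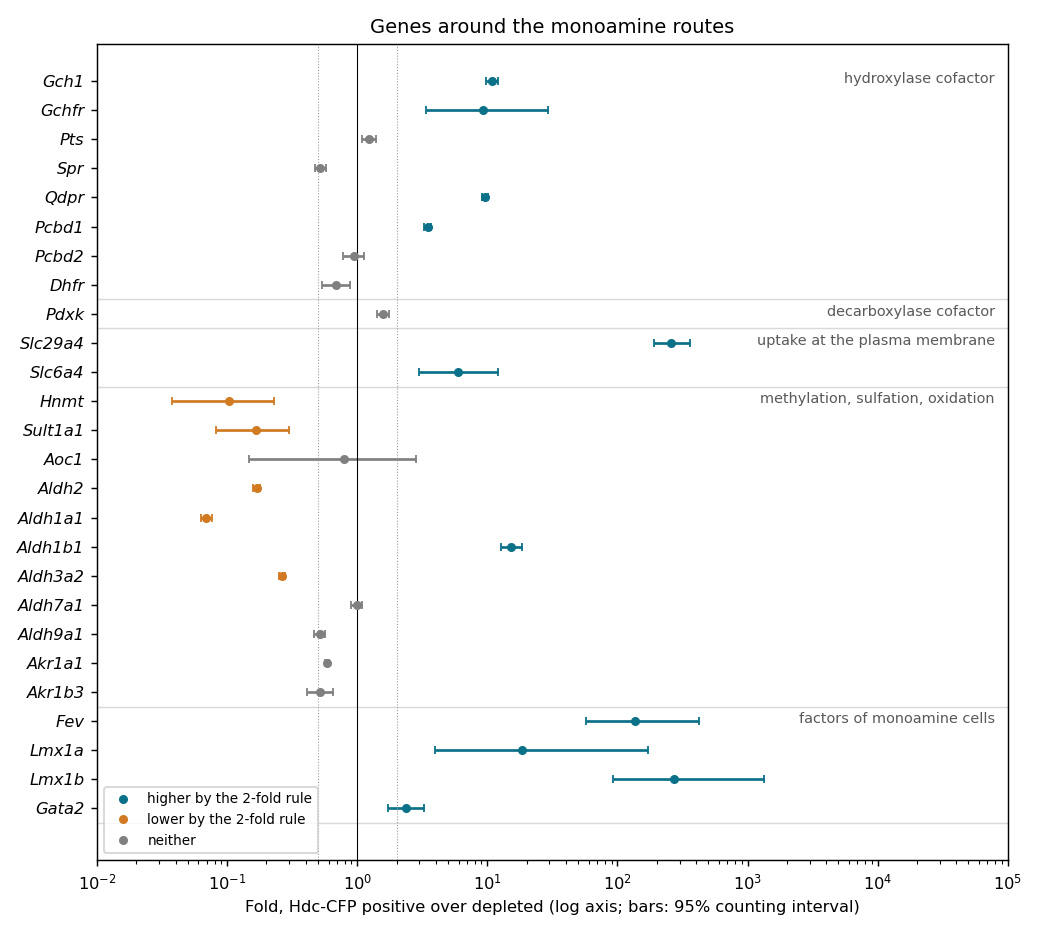
Fold of Hdc-CFP positive over depleted (log axis, 95% counting intervals) for genes around the monoamine routes, coloured by the 2-fold rule (dotted lines at 2-fold). Slc29a4 stands at 259-fold and Gch1 and Qdpr near 10-fold higher, whereas Hnmt, Sult1a1, Aldh2, Aldh1a1 and Aldh3a2 lie to the left of the lower line.

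Transcription factors known from monoamine neurons were measured for 5 of 9 listed genes, and all 5 were higher, beside 21.9% of all measured genes. Fev and Lmx1b, which in the mouse brain are needed for serotonin neurons, had 184 and 223 counts in the positive library and 5 and 3 in the depleted library. Their folds were 136 [57.1 to 423] and 274 [92.6 to 1339]. Lmx1a was 18.4-fold higher [3.93 to 173] on 10 counts in the positive and 2 in the depleted library, and Gata2, which mast cells also use, 2.35-fold higher [1.71 to 3.23]. Hand2 and Gata3, factors of sympathetic neurons, had 0 counts in both libraries, and Phox2a had 0 in the positive and 3 in the depleted library.

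Markers of other cells that make or store monoamines were also present. Of 18 mast cell genes, 16 were measured, of which 9 were higher and 3 lower, beside 21.9% of all measured genes in each direction. The list summed to 320 CPM in the positive and 167 CPM in the depleted library. Its members ranged from 0.0821 to 59.4 CPM in the positive library and from 0 to 32.1 CPM in the depleted library. Of the 6 basophil genes, 4 were measured and 2 higher, beside 21.9% of all measured genes. Their sum was 10.2 CPM in the positive and 4.59 CPM in the depleted library. Prss34 had 0 counts in both and Mcpt8 had 7 counts in the positive and 3 in the depleted library. Of the 14 neuron genes, 6 were measured and all 6 were higher, beside 21.9% of all measured genes. The neuron list summed to 115 CPM in the positive and 2.03 CPM in the depleted library. Several of the neuron genes, such as Ret and Elavl4, are also active in endocrine cells. The defining neuron genes Prph, Hand2 and Vip had 0 counts in both libraries, and Chat, of cholinergic neurons, had 1 in the positive and 3 in the depleted library.

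For enterochromaffin cells, which hold serotonin in the gut, the listed genes beside Chga had few counts. Tac1 had 4 counts in the positive and 7 in the depleted library, Cartpt 3 and 0, and Trpa1 1 and 0. Lmx1a and Slc6a4, given above, had 10 and 24 counts in the positive and 2 and 15 in the depleted library. Of the further ECL genes, the gastrin receptor gene Cckbr had a fold of 31.0 [28.4 to 33.9] and the somatostatin receptor gene Sstr2 one of 6.32 [5.82 to 6.87], and Adcyap1r1 had 0 counts in the positive and 5 in the depleted library. The list of other corpus endocrine genes summed to 5130 CPM in the positive and 544 CPM in the depleted library, and that of fibroblasts and endothelium to 1.31 and 21.9 CPM. The pancreatic acinar list summed to 1538 CPM in the positive and 3.90 CPM in the depleted library. The macrophage list summed to 8.95 and 2737 CPM and the tuft cell list to 8.38 and 269.8 CPM in the positive and depleted library. The part of any of these cells in the values of Hdc, Ddc, Th, Tph1, the transporters and the oxidases was not tested.

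Genes nearest to a member in log2 CPM over both libraries, a likeness over only 2 values, were named among 14125 measured protein-coding genes. Nearest to Hdc were Chgb (6190 CPM in the positive and 24.1 CPM in the depleted library), Pnliprp1 (7603 and 35.7 CPM) and Slc18a2 itself, at distances of 0.533, 0.779 and 1.61 log2 units. Nearest to Slc18a2 were Pappa2, Vtn and Peg3 (0.525 to 0.939), and nearest to Ddc were Ptprn, Agt and Scg5 (0.499 to 0.588). Tph1 lay closest to Egf, Morn4 and Stk36 (0.0532 to 0.118). Slc18a1 lay closest to Ica1l, Lhfpl4 and Lin7a (0.0222 to 0.12).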

How the data were processed

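The authors used TopHat2 2.0.07, the mm9 build and HTSeq, per the submitters' processing notes, and deposited 1 table of raw counts by Ensembl gene for each library. The sources used here give no HTSeq version, strand setting or annotation release, so reads of a gene and an antisense partner cannot be told apart. The 5 summary rows stayed out of library sizes: in the positive library 9.20% of alignments lay in no feature, 1.45% were ambiguous and 24.2% mapped to several places, against 4.91%, 1.11% and 34.3% in the depleted library.

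Symbols came from GENCODE M21, which named 32642 of 37681 identifiers. Of 159 listed genes 156 were found. Exon lengths came from M21 (GRCm38), not from the mm9 annotation behind the counts. Scaling used edgeR 4.0.16 (R 4.3.3) TMM factors over measured genes, 1.13 for the positive and 0.882 for the depleted library. CPM intervals are exact Poisson, fold and ratio intervals exact binomial (Clopper-Pearson), and ratios of ratios have the exact conditional interval of the 2 by 2 table (scipy 1.17.1). Log2 folds had 0.5 added in proportion to library size. A fold against 0 counts was set at the floor of 3 counts per library. All intervals and floors cover counting error only. The fold, interval and calling steps were tested on simulated Poisson counts with known folds. Named genes were all 9 members, any measured gene of the pathway lists, the 3 nearest genes of 5 members, and markers by sums. The marker genes with single values (Chga, Gkn1, Ghrl, Sst, Ret, Elavl4, those of mast, enterochromaffin and ECL cells and those at or near 0 counts) were chosen after their values were seen. Members and lists were chosen with earlier results of these data known. Some listed genes are counted in their lists but not reported here. The proteins of the members are not printed because no protein sequences were used here. Alternatives were other scalings (among them DESeq2 1.42.0 size factors), count filters, a 4-fold rule, a pseudocount of 2, other lengths and a thinned depleted library.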

Additional observations from a re-analysis of the deposited data

How the results depend on the processing

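The 8 members called higher, and the 0 called lower, were 8 and 0 under every scaling, filter, thinning and fold rule tried. Scaling moves all folds by a common factor: the median log2 fold of all measured genes was -0.05 with TMM and 0.31 with the library total alone. The fold of Hdc became 531 with the library total, 479 without the 20 most abundant genes and 383 with TMM over all genes, a setting chosen after seeing the data. The 7 other pathway genes called lower became 4 at 4-fold and 6 with the library total. With DESeq2 size factors, and with TMM over all genes, they became 10. Gene length moved the ratios within the positive library. With the longest coding transcript Tph1/Hdc was 0.00157, Slc18a1/Slc18a2 0.0265 and Maoa/Maob 0.210. With the mean coding transcript Slc18a1/Slc18a2 was 0.0443 and Maoa/Maob 0.210, and without length Maoa/Maob was 0.362. Th/Tph1 turned from 1.80 to 0.994 (mean coding transcript) and 0.690 (no length), and Maoa/Tph1 from 1.24 to 0.920 (longest), 0.464 (mean) and 0.840 (no length). The median of the 2 pyridoxal phosphate genes, -0.01, became 0.35 (library total), 0.03 (upper quartile) and 0.20 (without the 20 most abundant genes). Lengths and scalings differ by construction between these settings, and no other cause was tested. The depleted library was also thinned to the depth of the positive one, in a single random draw. The fold of Th was then 171 [30.4 to 6784], against 406, and that of Tph1 17.7 [10.4 to 32.8], against 13.5. Each of these intervals holds the value of the full library. Depth limits the values of Th and Slc18a1 in the depleted library, which rest on 2 and 12 counts. No paired analysis was possible because each group held 1 library. For the same reason, leaving out a library gives no value.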
